A study of Homo sapiens with 20 samples.

Results

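Box C/D small nucleolar RNAs (snoRNAs) were examined in exosomes and in cytoplasmic RNA granule cores. The source was HEK293, an established cell line from human embryonic kidney. The members were chosen by their measured reads: they are the genes whose symbol is SNORD followed by a digit, whose deposited transcript class is snoRNA, and whose estimated reads summed to at least 50 over the 20 libraries. That rule took 23 of the 302 box C/D genes annotated in the files, which list 62266 named genes in all. Of the other 279 genes, 34 had at least 1 read and the remaining 245 summed to under 1.

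Total RNA was sequenced from 4 groups of 5 biological replicates: exosomes of control cells, exosomes of HD-induced cells (HD, Huntington's disease), granules of control cells and granules of HD-induced cells. The sources used here do not give how the disease state was induced or how the particles were isolated before RNA extraction. All groups share the same cell line, a mirVana RNA isolation and stranded libraries read in pairs of 100 bases. One cell line limits the samples as a model of neurons, and p-values measure only the spread between these samples.

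Box C/D snoRNAs are short RNAs that carry a C box near the 5′ end and a D box near the 3′ end, and that form particles with the proteins fibrillarin (FBL), NOP56, NOP58 and SNU13. Most guide fibrillarin to methylate a ribose in ribosomal RNA (rRNA) or in U6 small nuclear RNA (snRNA) through base pairing upstream of a D box, and a few act in cleavage and folding of the rRNA precursor. Most human members are cut from introns of host genes, while U3, U8 and U13 have promoters of their own. They work mainly in the nucleolus, and the related scaRNAs in Cajal bodies.

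Sequences of 4 members are printed, 3 with many reads and 1, SNORD97, that was read in some libraries and not in others, and all were read from GENCODE 29 on build GRCh38. SNORD17 lies at chr20:17962710-17962946 on the minus strand in an intron of SNX5, which encodes a sorting nexin. SNORD10 lies at chr17:7576811-7576952 on the plus strand within EIF4A1, the gene of an RNA helicase of translation initiation. SNORD22 lies at chr11:62852910-62853035 on the minus strand within SNHG1, a non-coding host gene of several snoRNAs. SNORD97 lies at chr11:10801467-10801608 on the minus strand within EIF4G2, a translation regulator. Capitals mark a C box, spelled ATGATGA or GTGATGA and starting in the first 30 bases, and a D box, spelled CTGA and lying in the last 30. The sequences are DNA letters, 5′ to 3′.
SNORD17: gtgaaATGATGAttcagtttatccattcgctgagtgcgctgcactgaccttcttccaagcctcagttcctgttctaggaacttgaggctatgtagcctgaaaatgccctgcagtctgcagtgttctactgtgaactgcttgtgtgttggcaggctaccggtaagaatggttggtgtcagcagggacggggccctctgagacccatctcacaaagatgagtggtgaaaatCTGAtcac
SNORD10: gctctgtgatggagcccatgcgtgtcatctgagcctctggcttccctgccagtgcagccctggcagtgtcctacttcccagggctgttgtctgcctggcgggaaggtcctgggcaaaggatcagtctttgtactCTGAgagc
SNORD22: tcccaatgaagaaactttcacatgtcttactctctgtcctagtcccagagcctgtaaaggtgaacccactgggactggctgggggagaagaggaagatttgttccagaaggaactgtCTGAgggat
SNORD97: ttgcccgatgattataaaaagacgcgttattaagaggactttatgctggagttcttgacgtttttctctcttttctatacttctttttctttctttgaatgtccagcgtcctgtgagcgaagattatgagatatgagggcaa

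SNORD10 and SNORD22 held only the D box in these spellings, and SNORD97 held neither. Over all 23 members, 13 (56.52%) held both boxes, against 172 of 265 other box C/D genes (64.91%). None of 149 box H/ACA snoRNAs, the class that guides pseudouridine formation, held such a C box, and 18 (12.08%) held CTGA in the last 30 bases. Only the plus sense of each RNA was searched, and a missing match says only that those letters are not in that window. The U3 copies SNORD3A and SNORD3B-1 were identical at 91.6% of aligned positions. Within the U14 copies, SNORD14A and SNORD14B were identical at 85.9%, and SNORD14C at 76.9% with SNORD14A and 79.1% with SNORD14B. SNORD62A has the same sequence as SNORD62B, so its reads cannot be told from those of its copy.

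Of the 23 members, 20 lie in host genes. By the first host gene listed for each, 12 are intronic in every host transcript that spans them. SNORD10 counts among these 12 through the overlapping gene SENP3-EIF4A1, although a transcript of EIF4A1 holds it whole. SNORD3A, SNORD3B-1 and SNORD13 lie outside host genes. SNORD118 (U8) lies inside an exon of TMEM107 on chromosome 17. A further 8 members, like SNORD118, are held whole by a longer named transcript: SNORD10, SNORD22, SNORD14C, SNORD16, SNORD14B, SNORD56, SNORD110 and SNORD8. Reads of those 9 RNAs could be divided between the snoRNA and the longer transcript.

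Depth differed between groups, and 3 libraries stood apart. Total reads per library, in megareads (M), ran from 8.99 to 15.6 M in control exosomes, from 1.98 to 14.4 M in the HD exosome libraries other than replicate 4, from 17.4 to 38.4 M in control granules and from 26.96 to 35.8 M in HD granules. HD exosome 4 held 1074 reads and no box C/D read, a count that allows a share of up to 0.279%, and it was left out of every fit. HD exosome 2 placed 1941890 of 14445200 reads on named genes. HD granule 3 held 1648 box C/D reads, while every other granule library held at least 16997. Results that touch HD granule 3 are given with and without it. Intervals and limits from counts cover counting error only.

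Almost all reads of these snoRNAs came from granules. The members held 307140 of the 307601 box C/D reads (99.8%), and 99.3% of the members' reads were in the granule libraries, 305130 reads against 2009 in exosomes. Only SNORD17, SNORD15B, SNORD3A and SNORD3B-1 reached 50 reads in exosomes alone, and SNORD10 had 46.4 there. The other 19 members reached the threshold through their granule reads, so for them a higher level in granules comes in part from how they were chosen. In exosomes, 5 members had no read: SNORD14B, SNORD56, SNORD110, SNORD62A and SNORD14A. Just inside the threshold were SNORD91B with 115 reads, SNORD62A with 85 and SNORD14A with 81.5, and just outside were SNORD24 with 46.7, SNORD33 with 42.9 and SNORD83B with 39.9.

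Long box C/D RNAs held nearly all of the reads. The 36 annotated genes of 100 bases or more held 98.9% of box C/D reads, and 16 of the 23 members were of that length against 20 of the other 279 genes. The median length was 114 bases for members and 79 for the others. The 204 genes under 85 bases included 2 members, SNORD56 and SNORD110, and held 0.249% of the reads. The 14 genes of 150 bases or more included 4 members (SNORD17, SNORD91B and both U3 copies) and held 61.8%. The brain-enriched imprinted clusters were not seen: the 74 SNORD115 and SNORD116 genes and the 39 SNORD113 and SNORD114 genes had 0 reads in all 20 libraries. Read pairs of 100 bases and steps that keep or lose short inserts are shared by all groups, and their part in the length pattern was not tested.

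**Figure D1:**
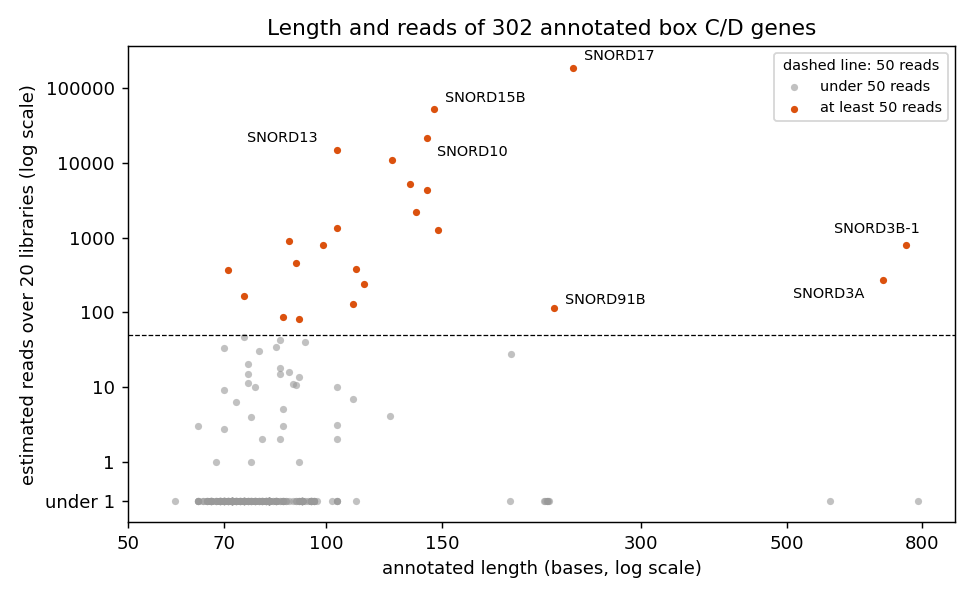
Each point is 1 of the 302 annotated box C/D genes, with its length in bases on a log x axis and its estimated reads summed over the 20 libraries on a log y axis. The dashed line marks 50 reads, orange points are the 23 members, and genes under 1 read lie on the lowest row. Genes of 100 bases or more hold 98.9% of the reads.

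SNORD17, a guide for 28S rRNA methylation and the longest intronic member, had the most reads of the box C/D genes in each of the 4 groups. In control exosome 4 alone the named SNORD3A had more, 102 reads against 73. SNORD17 held 61.5% of the members' reads, and with SNORD15B, SNORD10, SNORD13 and SNORD22 it made up 93.8%. Levels below are CPM, reads on a gene relative to all reads on named genes, scaled between libraries by trimmed means, and SDs are over 5 libraries, or 4 for HD exosomes. In control exosomes SNORD17 measured 20.1, 21.2, 45.1, 13.1 and 15.1 CPM in replicates 1 to 5 (mean 22.9 ± 12.8). In control granules it measured 868, 1096, 1080.1, 993 and 772 CPM (962 ± 139.5). Every control granule library lay far above every control exosome library, and replicate 3 was the highest exosome library. The difference was 5.32 ± 0.34 (SE) on the log2 scale, 39.9-fold (adjusted p = 1.98e-07, edgeR's quasi-likelihood test with Benjamini-Hochberg adjustment). In HD exosomes SNORD17 measured 30.3, 73.7, 9.10 and 12.02 CPM in replicates 1, 2, 3 and 5 (31.3 ± 29.8). In HD granules it measured 948, 1259, 42.8, 1923 and 1388 CPM (1112 ± 694, or 1379.6 ± 406 without replicate 3). HD granule 3 lay below HD exosome 2, so the HD groups overlapped, and the other 4 HD granule libraries lay above all exosome libraries. The log2 difference in HD cells was 5.15 ± 1.01 (adjusted p = 0.00836, edgeR), or 5.44 without HD granule 3 (adjusted p = 0.00015). In bulk RNA, fewer particles that carry an RNA and less of it in each cannot be told apart.

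SNORD15B and SNORD15A (the U15 copies), also 28S guides, lie in introns of RPS3, a ribosomal protein gene, but differed greatly in reads. SNORD15B measured 2.36, 2.53, 4.87, 1.43 and 2.31 CPM in control exosomes (2.70 ± 1.28). In control granules it measured 201, 227, 307, 238 and 219 CPM (238 ± 40.8). The groups were far apart, 83.9-fold, with a log2 difference of 6.39 ± 0.26 (adjusted p = 1.61e-08, edgeR). In HD exosomes SNORD15B measured 3.47, 5.67, 5.20 and 8.22 CPM (5.64 ± 1.96). In HD granules it measured 277, 395, 8.69, 611 and 359 CPM (330.2 ± 218, or 411 ± 142 without replicate 3). Even HD granule 3 lay above all HD exosome libraries, and the log2 difference was 5.87 ± 0.98 (adjusted p = 0.00426). SNORD15A had no read in control exosomes and its control granule levels were 4.71, 10.4, 11.2, 0 and 4.45 CPM, a mean at least 67.9-fold higher when set against 3 reads over the exosome group. The zero in control granule 4 overlapped the exosomes, and SNORD15A was not among the genes tested in control cells. In HD cells SNORD15A measured 0.714, 0, 0 and 0 CPM in exosomes and 11.1, 5.05, 0.292, 12.9 and 12.5 CPM in granules (log2 difference 4.77 ± 1.23, adjusted p = 0.0236). The fourth 28S guide, SNORD91B in TSR1, stayed at or below 1.05 CPM in every library and was in neither granule-against-exosome test.

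**Figure D2:**
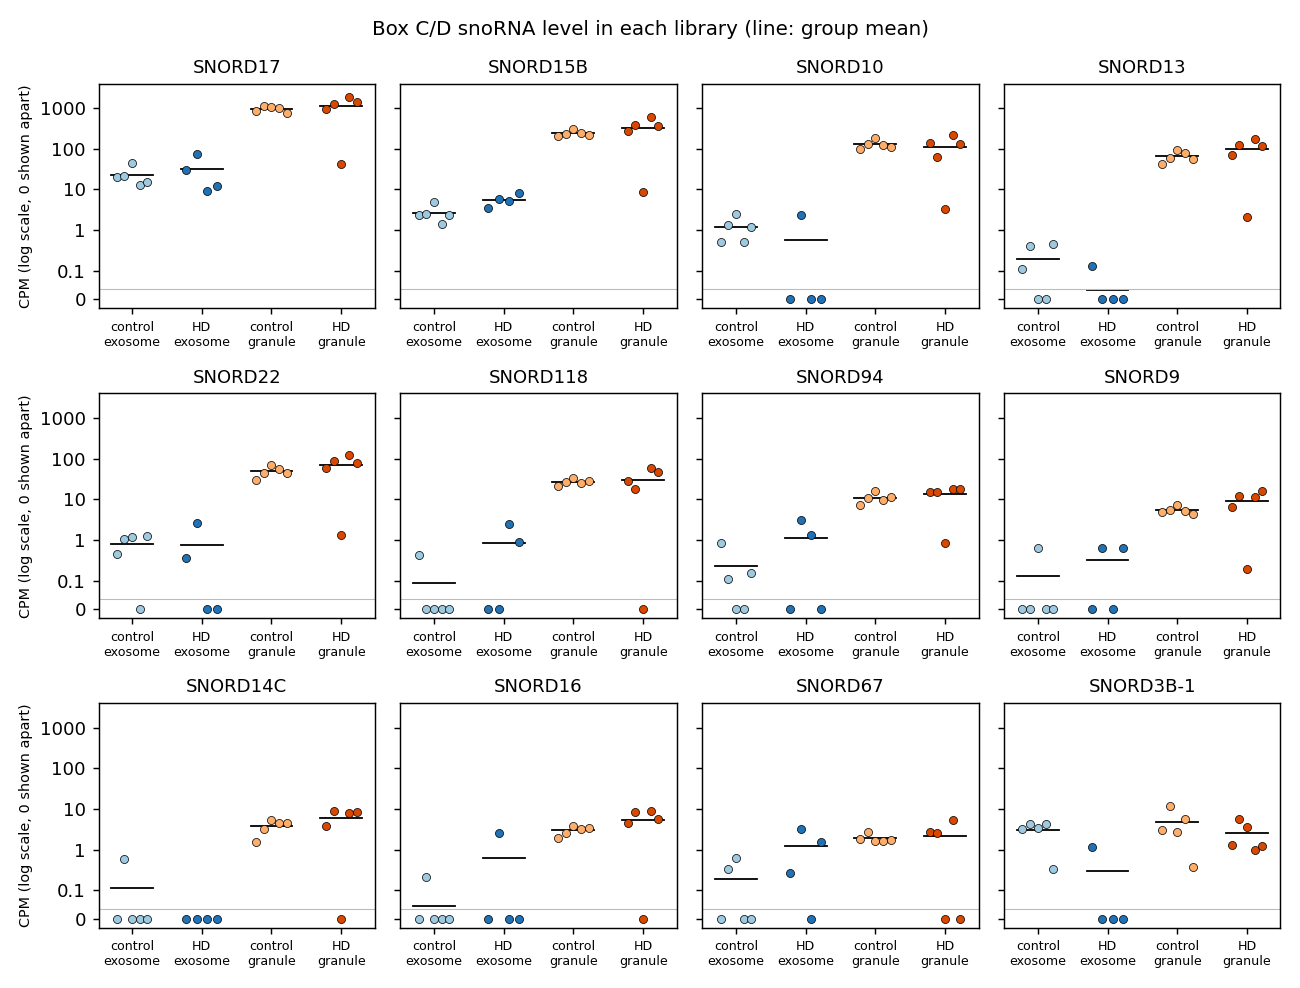
Each panel is 1 of 12 members, each point 1 library by group, and each line a group mean, with CPM on a log y axis and 0 shown apart at the bottom. In the SNORD17 panel control granules lie between 772 and 1096 CPM and control exosomes between 13.1 and 45.1, and in most panels HD granule 3 is the low point of its group.

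The guides for U6 snRNA, a spliceosomal RNA, were SNORD10, SNORD94, SNORD9, SNORD8 and SNORD67. SNORD10 measured 0.502, 1.32, 2.46, 0.505 and 1.16 CPM in control exosomes (1.19 ± 0.803). In control granules it measured 101, 129, 181, 121 and 112 CPM (129 ± 30.97). The groups did not overlap, with a 101-fold and log2 difference of 6.65 ± 0.34 (adjusted p = 5.63e-08, edgeR). In HD exosomes SNORD10 had reads in replicate 2 alone, at 2.30 CPM, and in HD granules it measured 141, 61.4, 3.27, 214 and 129.7 CPM (110.0 ± 80.6, or 137 ± 62.6 without replicate 3). All 5 HD granule libraries lay above the HD exosomes (log2 8.29 ± 1.48, adjusted p = 0.00568). SNORD94 measured 0.857, 0.110, 0, 0 and 0.154 CPM in control exosomes. Its control granule levels were 7.07, 10.7, 16.05, 9.62 and 11.3 CPM (10.9 ± 3.28), above every exosome library by a log2 difference of 5.26 ± 0.60 (adjusted p = 1.39e-05). SNORD94 varied little among HD granules other than replicate 3: 15.3, 15.4, 17.9 and 17.9 CPM against 0.826. Its difference in HD cells was 4.09 ± 1.254 (adjusted p = 0.0443), and the call was lost with the replicate numbers as a block (adjusted p = 0.0942).

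SNORD9 and SNORD8, both within CHD8, the gene of a chromatin remodeler, differed in how steadily they were read. SNORD9 measured 4.94, 5.53, 7.11, 5.05 and 4.29 CPM in control granules (5.39 ± 1.06) and had reads in 1 control exosome library, at 0.628 CPM. All 5 control granule libraries lay above all 5 exosome libraries, by 5.39 ± 0.76 on the log2 scale (adjusted p = 7.00e-05, edgeR). In HD granules SNORD9 measured 6.56, 12.2, 0.197, 11.5 and 15.6 CPM, and in HD exosomes 0, 0.630, 0 and 0.633 CPM (log2 5.09 ± 1.36, adjusted p = 0.0262). SNORD8 measured 0, 2.46, 0, 1.69 and 3.64 CPM in control granules and 0 in 4 of 5 HD granules, with 0.0649 CPM in HD granule 3, so control granule libraries held either none or more than 1 CPM. SNORD8 in control cells gave a granule to exosome ratio of 19.0, with a counting interval of 6.51 to 92.3 from 3 exosome reads. SNORD67 in CKAP5 measured 1.84, 2.76, 1.68, 1.60 and 1.75 CPM in control granules (1.93 ± 0.475) and 0, 0.330, 0.628, 0 and 0 in control exosomes (log2 3.20 ± 0.73, adjusted p = 0.00233). In HD cells its groups overlapped, with 0.267, 3.15, 0 and 1.58 CPM in exosomes and 2.74, 2.53, 0, 5.32 and 0 in granules (log2 0.86 ± 1.53, adjusted p = 0.727).

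The members that act in processing of the rRNA precursor were U13 (SNORD13), U22 (SNORD22), U8 (SNORD118), the U14 copies and the U3 copies. SNORD13, which guides 18S rRNA acetylation, measured 0.112, 0.397, 0, 0 and 0.466 CPM in control exosomes. In control granules it measured 42.003, 57.6, 92.8, 79.2 and 56.998 CPM (65.7 ± 20.1). The groups were 278-fold apart (log2 8.12 ± 0.45, adjusted p = 8.94e-08, edgeR). In HD granules SNORD13 measured 68.4, 122, 2.07, 176 and 116 CPM, while its HD exosome level, 0.131 CPM in replicate 1 and 0 elsewhere, rests on about 1 read (ratio 1271, counting interval 228 to 50188; log2 10.22 ± 1.54, adjusted p = 0.00291). SNORD22, needed for 18S rRNA processing, measured 0.455, 1.03, 1.17, 0 and 1.27 CPM in control exosomes (0.787 ± 0.542). In control granules it measured 29.9, 44.1, 71.0, 53.99 and 45.2 CPM (48.8 ± 15.1), without overlap (log2 5.92 ± 0.42, adjusted p = 4.23e-07). In HD cells SNORD22 ran at 0.363, 2.66, 0 and 0 CPM in exosomes and at 60.1, 86.7, 1.31, 125 and 79.8 CPM in granules, where HD granule 3 lay below HD exosome 2 (log2 6.96 ± 1.34, adjusted p = 0.00776).

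SNORD118, which acts in 28S rRNA maturation, had reads in 1 control exosome library (0.424 CPM) and measured 21.1, 27.2, 33.0, 25.7 and 28.3 CPM in control granules (27.0 ± 4.32). The log2 difference was 7.78 ± 0.51 (adjusted p = 2.38e-07, edgeR). In HD granules SNORD118 measured 28.2, 17.4, 0, 58.5 and 46.3 CPM against 0, 0, 2.47 and 0.909 in HD exosomes (log2 5.50 ± 1.67, adjusted p = 0.0433). HD granule 3 had none, and the call was lost with the replicate numbers as a block (adjusted p = 0.237). The U14 copy SNORD14C in HSPA8 was at 0, 0.583, 0, 0 and 0 CPM in control exosomes and at 1.54, 3.25, 5.27, 4.48 and 4.62 CPM in control granules (log2 4.71 ± 0.81, adjusted p = 0.000315). In HD cells SNORD14C had no exosome read and measured 3.76, 9.07, 0, 8.02 and 8.68 CPM in granules, at least 25.7-fold higher (adjusted p = 0.0485). The RPS13 copies SNORD14B and SNORD14A had no exosome read, and in control granules SNORD14B ran from 0.517 to 2.74 CPM (at least 24.5-fold higher) and SNORD14A from 0 to 0.694 (at least 4.70-fold).

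The named U3 entries did not show this pattern. Reads also lay on unnamed entries of like length, and whether reads were divided between these and the named entries was not tested. U3 is the most abundant box C/D snoRNA of the nucleolus, where it acts in early cleavages of the rRNA precursor. SNORD3A, 699 bases as annotated, measured 12.4, 0, 0, 18.3 and 3.36 CPM in control exosomes (6.81 ± 8.18) and 4.51, 0, 0 and 0 in HD exosomes, and it was listed at 0 in all 10 granule libraries. Those zeros coincided with reads on an unnamed entry of 701 bases, 132, 181, 183, 256 and 149 in control granules and 1.5 to 10 in control exosomes. With that entry added, the summed level ran from 0.236 to 18.8 CPM in control exosomes and from 10.1 to 12.8 in control granules, so the groups overlapped and no difference is read from the named entry. SNORD3B-1, 758 bases, measured 3.26, 4.26, 3.36, 4.26 and 0.343 CPM in control exosomes (3.10 ± 1.61). In control granules it measured 3.01, 11.99, 2.74, 5.74 and 0.376 CPM (4.77 ± 4.46), overlapping the exosomes (log2 0.56 ± 0.73, adjusted p = 0.525, edgeR). In both groups replicate 5 was the lowest. In HD cells SNORD3B-1 ran at 1.19, 0, 0 and 0 CPM in exosomes and 1.33, 5.56, 3.61, 1.01 and 1.204 in granules (log2 2.41 ± 1.04, adjusted p = 0.126). The U3 copies are near-identical, and unnamed entries of like length exist in the files (157 with at least 50 reads within 3 bases of SNORD3B-1 and 133 of SNORD3A). The entry taken for SNORD3B-1, of 756 bases, held 312 to 669 reads per control granule library and 1.8 to 6.67 per control exosome library. Summed with it, SNORD3B-1 ran from 1.06 to 4.61 CPM in control exosomes and from 23.1 to 43.5 in control granules, without overlap. Each entry was taken from many candidates after the values were seen, and its sequence was not compared, so the level of either copy is uncertain. Without the filter on low counts the named SNORD3A was called higher in exosomes of HD cells, against 3.55% of 37271 genes called in that direction.

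The 18S rRNA guides were sparse. SNORD16 in RPL4 measured 1.90, 2.60, 3.83, 3.28 and 3.46 CPM in control granules and 0.209 in 1 control exosome library (log2 5.52 ± 0.69, adjusted p = 2.64e-05, edgeR), a ratio of 56.7 with a counting interval of 15.7 to 469. In HD cells SNORD16 ran at 0, 2.52, 0 and 0 CPM in exosomes and 4.66, 8.40, 0, 9.02 and 5.61 in granules (log2 3.67 ± 1.68, adjusted p = 0.147). SNORD56 and SNORD110, neighbours in NOP56, the gene of a box C/D core protein, had no exosome read. In control granules SNORD56 measured 1.86, 0.885, 2.66, 1.34 and 1.52 CPM (at least 20.1-fold higher), while SNORD110 ran from 0 to 0.891 (at least 6.48-fold). SNORD62A in PRRC2B had 3 control granule libraries with reads, at 0.538, 0.559 and 0.873 CPM, and 2 with none (the mean was at least 4.23-fold higher than in exosomes). The orphan members, with no known rRNA or snRNA target, were SNORD97 and SNORD89. SNORD97 measured 0, 0, 40.4, 30.5 and 0 CPM in control granules and 31.1, 62.5, 0.680, 53.4 and 0 in HD granules, and SNORD89 in RNF149 measured 9.82, 0, 0, 0 and 5.90 CPM in control granules. Libraries of 1 group thus held either over 30 CPM of SNORD97 or under 1. In HD cells the named SNORD89 was lower in granules (0.094 ± 0.211 CPM, with reads in HD granule 3 alone) than in exosomes (1.27 ± 1.49). These groups overlapped, and SNORD89 was not among the genes tested there.

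Across the members, 12 of 23 passed the filter on low counts in control cells and 11 of these were higher in granules, with 0 higher in exosomes. Of all 14777 genes tested, 30.0% were higher in granules and 32.5% higher in exosomes. Median log2 differences were 5.46 for the tested members and -0.02 for all genes. Nothing is read from the members' count or median, here or in HD cells, since 19 of them reached the read threshold through granule reads. No library of one group overlapped the other for the 11 called members, nor for the untested SNORD14B and SNORD56, which had no exosome read. The share of all genes without such overlap was not computed, so nothing is read from how many members did not overlap. Of the 4 members that reached 50 reads on exosomes alone, SNORD17 and SNORD15B were higher in granules, SNORD3B-1 overlapped and SNORD3A was listed at 0 there, both as named entries.

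In HD-induced cells 17 members passed the filter and 10 were higher in granules, against 10.2% of the 16171 genes tested (7.85% were higher in exosomes). The 7 not called were SNORD97 (log2 5.51 ± 1.83, adjusted p = 0.0580), SNORD16, SNORD3B-1, SNORD14B, SNORD67, SNORD56 and SNORD110. Without HD granule 3 the count was 15 of 17, and SNORD16, SNORD14B, SNORD56, SNORD97 and SNORD110 gained calls. Leaving out any other single HD library gave 5 or 6 calls. SNORD17, SNORD15B, SNORD10, SNORD13 and SNORD22 were called without each of the 9 HD libraries in turn (highest adjusted p = 0.0319). SNORD118 was called in 1 of those 9 fits and SNORD94 in 2, SNORD15A in 2 of the 6 fits that tested it, SNORD9 in 2 of 5 and SNORD14C in 1 of 5 (highest adjusted p = 0.109). With the replicate numbers as a block, SNORD97 (adjusted p = 0.0039) and SNORD14B (adjusted p = 0.048) gained calls while SNORD118 and SNORD94 lost theirs.

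Between members, SNORD17 and then SNORD15B stood apart from the rest in control granules by CPM per 100 bases of annotated length. In HD granules SNORD17, at 469 CPM per 100 bases (18.1 to 811 over libraries), overlapped SNORD15B at 226 (5.95 to 419). HD granule 3 was the lowest library of both. Per 100 bases, control granules held 406 CPM of SNORD17 (326 to 462 over libraries) and 163 of SNORD15B (137 to 210.4), and these did not overlap. SNORD10 followed at 90.6 (71.2 to 127), below SNORD15B without overlap. SNORD13 at 63.2 (40.4 to 89.2) overlapped SNORD10, and the order then ran through SNORD22 (38.8), SNORD118 (20.2), SNORD97 (9.99), SNORD94 (7.98), SNORD9 (5.18), SNORD14C (4.35), SNORD15A (4.16) and SNORD16 (3.04). In control exosomes SNORD17 at 9.67 (5.52 to 19.0) stood above SNORD15B at 1.85 (0.982 to 3.33), and all later neighbours overlapped. The deposited length-corrected values (TPM) gave another order in control granules, with SNORD13 at 3494, SNORD17 at 2990 and SNORD15B at 2678. In HD granules TPM put SNORD13 at 3812 and SNORD15B at 2860 above SNORD17 at 2746. In HD exosomes it put SNORD15B at 71.7 above SNORD17 at 65.6. The effective length behind TPM varied between libraries, from 82 to 124 bases for SNORD17 and from 3 to 8 for SNORD13, so TPM was not used to rank members. The order given here therefore holds for CPM per 100 bases only, and which RNA was most abundant is not settled.

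The makeup of the box C/D pool varied less between granule libraries than between exosome libraries, which hold far fewer reads. SNORD17 held 57.1 ± 16.6% of box C/D reads in control exosomes, 59.3 ± 16.3% in HD exosomes, 62.9 ± 3.89% in control granules and 61.6 ± 3.02% in HD granules. SNORD15B held 6.96 ± 2.26%, 17.8 ± 13.1%, 15.6 ± 1.25% and 17.0 ± 2.27% in the same order. Pooled over the control exosomes, the named entry of SNORD3A held 16.7% and SNORD3B-1 8.13%, while in the control granules they held 0 and 0.315%.

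Box C/D genes took 0.00239 ± 0.00068% of all reads in control exosomes (0.00157 to 0.00341%) and 0.0968 ± 0.0207% in control granules (0.0671 to 0.125%), a 40.5-fold gap. In HD cells the shares were 0.00182 ± 0.00067% in exosomes (n = 4) and 0.110 ± 0.0668% in granules, or 0.137 ± 0.0358% without HD granule 3, a gap of 60.8-fold or 75.4-fold. HD granule 3 held 0.00460% of its reads on box C/D genes, a share above the highest exosome library and below every other granule library. The same library was low in H/ACA snoRNAs (0.0109%, against a control granule mean of 0.211%) and in scaRNAs (0.0486% against 0.680%). Markers of nuclear RNA were low there as well: their summed level was 9132 CPM in HD granule 3 and 32854 to 44225 in the other HD granules. Whether these differences share a source was not tested.

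**Figure D3:**
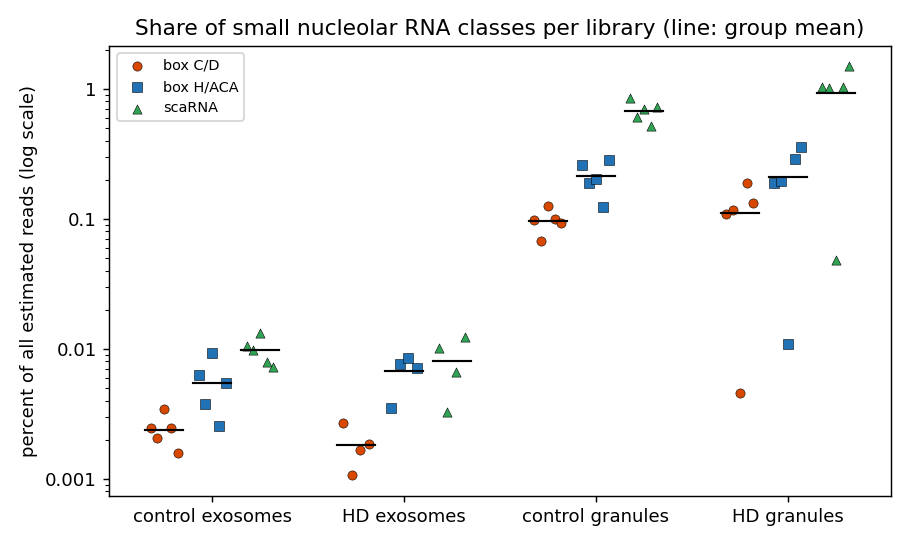
Share of all reads in percent (log y axis) on box C/D snoRNA, box H/ACA snoRNA and scaRNA genes, with 1 point per library and the group as the x position. HD exosome 4 is not drawn. Granule libraries lie above exosome libraries in each class, and HD granule 3 is the lowest granule library at 0.00460% for box C/D.

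The other snoRNA classes also took a larger share of granule reads. By share summed over all annotated genes, with no read threshold, the granule to exosome ratio in control cells was 38.9 for H/ACA snoRNAs and 69.9 for scaRNAs. Among H/ACA snoRNAs with at least 50 reads over all libraries, 58 of 60 tested were higher in granules in control cells (median log2 5.21) and 24 of 74 in HD cells (median 3.48). Among scaRNAs the counts were 11 of 11 (6.15) and 6 of 15 (6.04). These genes were chosen by the same read threshold, which granule reads dominate, so nothing is read from the counts against the 30.0% and 10.2% of all genes. Of 7 other nuclear RNAs, 3 were higher in control granules (MALAT1 by 0.85 ± 0.17, RMRP by 1.23 ± 0.24 and RPPH1 by 1.47 ± 0.33 on the log2 scale). The named RN7SK entry was lower, listed at 0 in control granules against 6457 CPM in exosomes, and it was at 0 in HD granules too. Whether unnamed entries hold its granule reads was not checked, so no difference in RN7SK is read from that zero. Summed over that list, RN7SK included, control exosomes ranged from 21131 to 26324 CPM and control granules from 23976 to 61894. The part of nuclear RNA in the snoRNA levels was not tested. Markers of red blood cells, a type HEK293 cultures should lack, were lower in control granules for 5 of 6 genes tested, with summed levels of 77.8 to 275 CPM in exosomes and 11.5 to 37.7 in granules. Keratinocyte markers were lower for 3 of 3, with sums of 357 to 569 against 213 to 415.

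Host gene transcripts did not move with their snoRNAs in size, and some moved the other way. SNX5, host of SNORD17, averaged 247 CPM in control granules against 166 in exosomes (log2 0.51 ± 0.11, adjusted p = 0.00188, edgeR). RPS3, host of SNORD15B and SNORD15A, was lower in granules by a log2 difference of -1.59 ± 0.18, EIF4A1 by -0.88 ± 0.12 and RPL4 by -1.13 ± 0.15, while their snoRNAs SNORD15B, SNORD10 and SNORD16 were higher. SNHG1, whose mature RNA codes for no protein, was higher in granules, at 339 against 39.3 CPM (log2 3.04 ± 0.12). CHD8 at 0.14 ± 0.15 (adjusted p = 0.430), HSPA8 at -0.04 ± 0.17 (0.855) and TMEM107 at 0.33 ± 0.21 (0.184) did not pass the test. In HD cells RPS3 was again lower in granules (-1.54 ± 0.27, adjusted p = 0.005) and SNHG1 higher (1.99 ± 0.49, adjusted p = 0.020). Of 75 snoRNA host genes tested in control cells, 32 were higher in granules and 20 in exosomes (median 0.20), against 30.0% and 32.5% of all genes tested.

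Some of the longer transcripts that hold a member whole also had many reads. In control cells RPL4-214, which holds SNORD16, had 307 reads in exosomes and 8796 in granules. EIF4A1-236, which holds SNORD10, had 169 and 6304, and HSPA8-211, which holds SNORD14C, had 127 and 2244. TMEM107-205, which holds SNORD118, had 38.5 and 437. By these counts, which are not scaled for the greater depth of the granule libraries, RPL4-214, EIF4A1-236, HSPA8-211 and TMEM107-205 were also read mainly in granules. NOP56-217, which holds SNORD110, had 59.9 and 153. EIF4A1 and RPL4 as whole genes were lower in granules. How the reads were split between the longer transcripts and the snoRNAs cannot be seen in the files.

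Messenger RNAs for the proteins of box C/D particles were described against all 14777 genes tested, of which 30.0% were higher in control granules and 32.5% in exosomes. Of the 4 core protein genes, FBL, the methyltransferase, was higher in control exosomes (249.99 against 62.04 CPM, log2 -2.07 ± 0.18) and SNU13 too (-0.52 ± 0.20, adjusted p = 0.0358, edgeR), while NOP58 (0.45 ± 0.20, adjusted p = 0.0630) and NOP56 (0.12 ± 0.10) did not pass the test. Of 18 assembly and trafficking genes, 6 were higher in granules, among them NOPCHAP1 (1.22 ± 0.10) and ZNHIT3 (1.41 ± 0.16), and 9 higher in exosomes, among them RUVBL2, an ATPase that loads core proteins (-3.08 ± 0.19). Of 12 genes of snoRNA end processing, 3 were higher in granules and 2 in exosomes. Of 39 genes of the U3 processome, 7 were higher in granules and 21 in exosomes (median -0.49), such as IMP4 (-2.39) and NOP14 (-1.73). FBL was also higher in exosomes of HD cells (-2.02 ± 0.37).

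**Figure D4:**
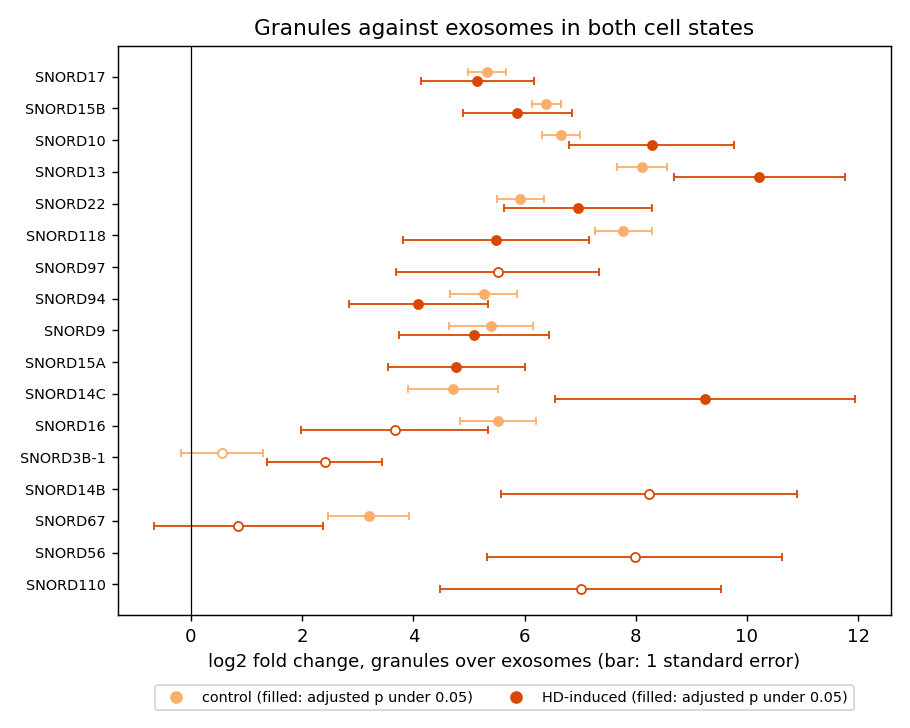
Log2 difference, granules over exosomes, on the x axis with a bar of 1 standard error for each tested member, in control and in HD-induced cells; filled points have an adjusted p under 0.05. SNORD17 lies at 5.32 and 5.15, SNORD3B-1 nearest to 0 in control cells at 0.56, and bars are longer in HD-induced cells.

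No member passed the test between HD-induced and control cells. In exosomes 4 members passed the filter and 0 were called by edgeR (1 at an unadjusted p under 0.05), against 0.00748% of 13374 genes called and 7.26% at an unadjusted p under 0.05. The log2 differences, HD-induced minus control, were 0.43 ± 0.56 for SNORD17 (adjusted p = 0.733), 1.06 ± 0.51 for SNORD15B (0.584), -2.61 ± 1.02 for SNORD3B-1 (0.584) and -2.09 ± 1.496 for SNORD3A (0.599). DESeq2 called 0 with 2 at an unadjusted p under 0.05, and limma's voom called 0 with 0. Without HD exosome 2 the SNORD17 difference was -0.36, so its direction rests on that library.

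In granules 19 members passed the filter and edgeR called 0, with 0 at an unadjusted p under 0.05, against 0.0% of 16750 genes called and 1.28% unadjusted. DESeq2 called 0 with 1 unadjusted (SNORD8), and voom called 0 with 2 (SNORD9 and SNORD110). The differences were 0.20 ± 0.64 for SNORD17, 0.46 ± 0.69 for SNORD15B, -0.24 ± 0.70 for SNORD10, 0.55 ± 0.72 for SNORD13 and 0.52 ± 0.73 for SNORD22, all with an adjusted p of 0.9996. A change smaller than the spread between these libraries was not detectable. Without HD granule 3, SNORD10 changed sign to 0.10. The difference between the HD effects in granules and exosomes was called by edgeR for 0 of 19 members, with 1 at an unadjusted p under 0.05, against 0.0118% of 17002 genes called and 4.82% unadjusted. That member was SNORD89 (-6.87 ± 2.58, adjusted p = 0.871), and DESeq2 and voom called 0 with 0 unadjusted. SNORD17 was at -0.22 ± 0.91 and SNORD15B at -0.56 ± 0.92 in that test. The named SNORD89 was at 0 in HD granules 1, 2, 4 and 5. An unnamed entry of 116 bases, described below, held 813, 753, 919 and 1133 reads there, so no difference is read from SNORD89.

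A pattern of presence in some libraries and absence in others was shared by several members and by entries of the files that carry no gene name. For each member, unnamed entries within 3 bases of its length were compared, and the entry whose reads summed with the member's gave the steadiest share over 9 granule libraries (without HD granule 3) was taken after the values were seen. For SNORD97 this was 1 of 16 candidates, 144 bases long. In control granules SNORD97 had 0, 0, 650, 744 and 0 reads and the entry had 295, 430, 0, 0 and 371. No library held both, and the coefficient of variation of the share was 1.00 for SNORD97 alone and 0.21 for the sum. The summed level was 30.2 ± 6.55 CPM in control granules. For SNORD15A and an entry of 150 bases the variation was 0.52 alone and 0.15 summed (8.82 ± 2.03 CPM in control granules), but 5 of the 9 libraries held both. Of the U3 copies described above, SNORD3B-1 showed the same kind of change, from 1.05 to 0.16. SNORD3A was listed at 0 in these libraries, so its sum, at 0.12, holds the variation of the unnamed entry alone. SNORD67 with an entry of 113 bases, read only in HD granules 3 and 5, went from 0.44 to 0.24, SNORD62A with one of 88 bases from 1.02 to 0.27, and SNORD89 with one of 116 bases from 2.06 to 0.31. SNORD91B went from 0.54 to 0.14, with both it and its entry in all 9 libraries. For SNORD17 the best of 76 candidates left it at 0.05. Whether these entries have the members' sequences was not checked here, because the files give no sequence for them, and the steadiest of several candidates is chosen to lower the variation.

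**Figure D5:**
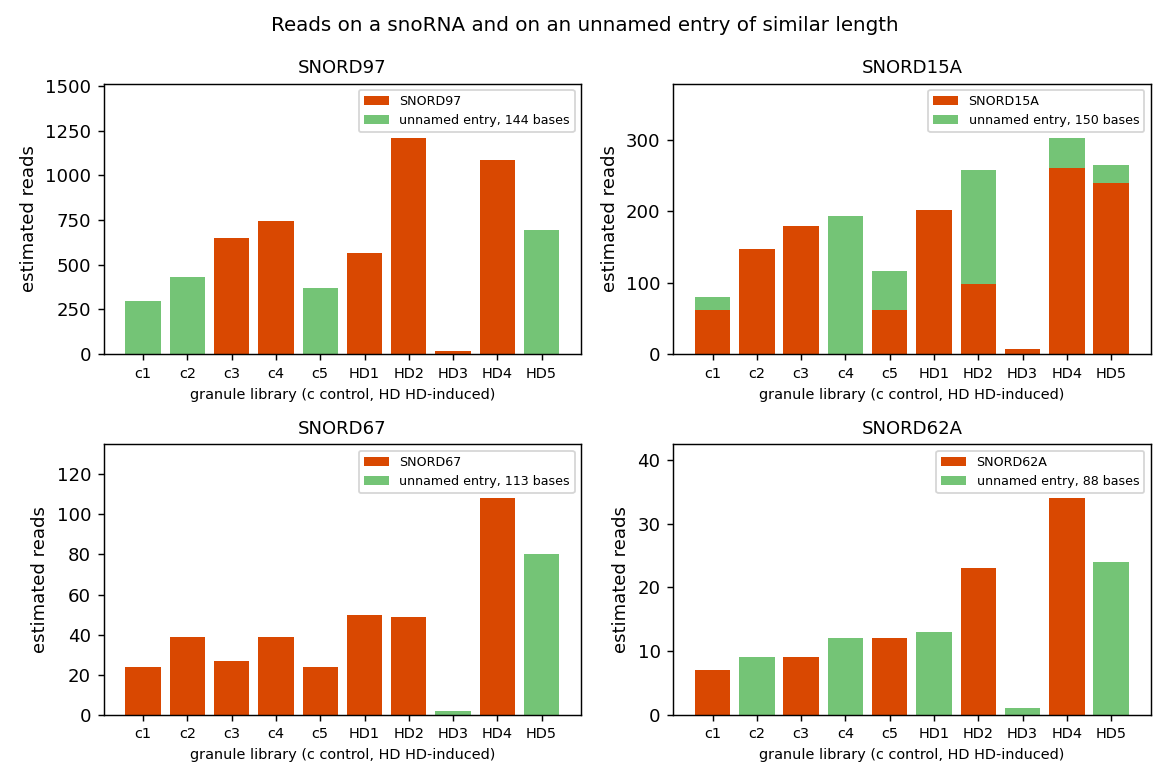
Estimated reads (y axis) per granule library (x axis) of 4 members and of the unnamed entry of like length taken for each, stacked as bars from 0. In the SNORD97 panel, replicates 3 and 4 of the control granules hold the named gene (650 and 744 reads) and replicates 1, 2 and 5 the unnamed entry (295, 430 and 371 reads).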

How the data were processed

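Stranded total RNA libraries of 20 samples were analysed. The authors trimmed and filtered reads and quantified transcripts on GRCh38.p14, and the submitters' processing notes name Trimmomatic, cutadapt, FastQC and Salmon, with no versions. The authors deposited an expected count and a TPM value per transcript, per the file headers. Both were used as deposited; expected counts were summed per gene and rounded for the tests.

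In R 4.3.3, edgeR 4.0.16 filtered genes (filterByExpr), scaled libraries (TMM) and gave quasi-likelihood tests with robust fitting and Benjamini-Hochberg adjustment over all genes tested. DESeq2 1.42.0 and voom of limma 3.58.1 were alternatives. Libraries under 100000 reads on named genes were left out of fits, and entries without a gene name were left out of gene tests. The fits were tested on simulated data with the same dispersion for every gene, where only genes above a minimum expected count were changed. For granules against exosomes in control cells, 95% of genes changed 4-fold and 99% of those changed 16-fold were recovered among 15033 genes. For the same in HD cells the values were 89% and 98% among 16774. For HD-induced against control they were 90% and 100% among 13402 in exosomes, and 95% and 98% among 16942 in granules. Most members had few exosome reads, so these rates do not give the recovery for members.

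Each group had 5 labelled replicates, and comparisons were made within a cell state or within a particle type. The main fits did not pair libraries by replicate number, and a fit with the numbers as a block was an alternative. In granules against exosomes of HD cells, same-numbered libraries correlated at 0.176, 0.112, 0.190 and 0.252 for replicates 1, 2, 3 and 5. The best other-numbered library gave 0.068, 0.136, 0.351 and 0.134, so the labels do not settle whether the numbers are pairs. Members and lists were chosen with earlier results of these data known. Called members were named where they averaged at least 5 CPM in either group without overlap, the largest 10 per direction, with all other members named for completeness. Sequences came from GENCODE 29 by position. Some member sequences are not reported here.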

Additional observations from a re-analysis of the deposited data

Results flagged for a closer look

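In 48 groups of libraries with enough reads to be checked, 4 held a library whose gap to its nearest neighbour was large for the group's range (above Dixon's 95% critical value), and chance gives about 1 in 20 groups. They were SNORD17 in control exosome 3 at 45.1 CPM (13.1 to 21.2 in the others), SNORD94 in HD granule 3 at 0.826 CPM (15.3 to 17.9), SNORD3B-1 in control exosome 5 at 0.343 CPM (3.26 to 4.26) and SNORD67 in control granule 2 at 2.76 CPM (1.60 to 1.84).

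Reads also lay on entries without a gene name, which no comparison used. In the 10 granule libraries, the entry of 144 bases beside SNORD97 held 1790 reads, that of 150 bases beside SNORD15A held 492, that of 113 bases beside SNORD67 held 82, that of 116 bases beside SNORD89 held 5313, that of 701 bases beside SNORD3A held 2184, that of 756 bases beside SNORD3B-1 held 5979 and that of 88 bases beside SNORD62A held 59. The entry of 144 bases was also the steadiest partner of SNORD15B, so a match by length does not tie an entry to 1 gene.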

How the results depend on the processing

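In control cells, the count of members higher in granules was 11 to 14 without any single library and 11 with the replicate block. It was 6, of 6 tested, at a minimum of 10 CPM, where fewer genes are tested. DESeq2 and a fit over all 4 groups each called 1 member, SNORD3A, higher in control exosomes, and in HD cells the fit without a count filter and the fit over all 4 groups each called 1. In HD cells, the count higher in granules was 5 to 15 without any single library, 15 without the 3 libraries that stood apart, and 10 with the replicate block, under which SNORD118 and SNORD94 lost their calls and SNORD97 and SNORD14B gained theirs. The block was also fitted between HD-induced and control cells, where it left 0 calls.

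SNORD67 in HD cells changed sign with voom (-0.99) and with the replicate block (-0.48). The HD effect on SNORD17 in exosomes was -0.36 when scaled by total reads, -0.36 without HD exosome 2 and -0.36 without the 3 libraries, and ran from -0.36 to 0.86 without single libraries. That on SNORD10 in granules was 0.10 without HD granule 3 or without the 3 libraries, and ran from -0.62 to 0.10. None of these was called, and the cause was not tested.

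Shares depended on the denominator. Of reads on named genes they were 0.00411% in control exosomes, 0.00435% in HD exosomes and 0.157% in control granules. Of summed TPM they were 0.0208%, 0.0285%, 1.34% and, in HD granules, 1.32%. Without single libraries the shares of all reads were 0.00214 to 0.00260%, 0.00153 to 0.00207%, 0.0897 to 0.104% and 0.0909 to 0.137%. Few exosome reads limit every exosome level: 162 to 385 box C/D reads per control library and 32.8 to 323 per HD library.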
